A study of Mus musculus with 16 samples.

Results

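The comparison described here is H3.3 G34W K36R against H3.1 wild type in the mouse line C3H10T1/2, whose label is mesenchymal stem cells. All genes with a mean deposited value of at least 10 over the 4 libraries compared were included, 12210 of the 20325 genes in the table. At the edge of that threshold Gpr179 was left out with a mean of 9.99 and 1700026L06Rik was kept with a mean of 10.03. Of the 8115 genes left out, 4224 were at 0 in all 4 libraries. The series asks how the transcriptome responds to substitutions at G34 of H3.3.

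The first group expressed an H3.1 transgene with the wild-type sequence. The second expressed an H3.3 transgene with G34W (glycine to tryptophan) and K36R (lysine to arginine) on the same tail. Both groups, and the 6 others of the series (H3.3 wild type, H3.3 G34W, H3.3 G34W K27R, H3.3 K27R, H3.3 G34R and H3.1 G34W), were made by lentiviral transduction for 2 days and puromycin selection at 1.5 µg/ml for 4 days. The labels name no edit of the cells' own histone genes, no promoter for the transgenes and no clone selection. Each group has 2 libraries of poly(A)-enriched RNA. The 2 groups differ at once in the histone type, in G34W and in K36R, and no group of the series carries K36R alone, so the parts played by these 3 differences cannot be told apart.

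H3.1 is the canonical histone H3, which is deposited behind the replication fork, whereas H3.3 is deposited independently of replication, at active genes by HIRA and at heterochromatin by DAXX and ATRX. G34W of H3.3 is the hallmark mutation of giant cell tumour of bone. Residue G34 lies beside K36, whose methylation by SETD2 and NSD enzymes marks transcribed and intergenic euchromatin and hinders methylation of K27 on the same tail by the Polycomb complex PRC2. Arginine at position K36 cannot receive the lysine methyl marks.

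The 4 libraries held an estimated 34.8 M to 49.1 M reads, against 26.02 M to 49.1 M over all 16 libraries. The value of 1 read was 0.758 and 0.977 in the H3.1 wild-type libraries and 0.978 and 0.882 in the G34W K36R libraries. The replicate pairs differed in closeness. Over genes with at least 1000 reads the SD of the log2 ratio between replicates was 0.0527 in G34W K36R and 0.489 in H3.1 wild type. A chi-square of the counts over genes with whole reads gave 1.33 per degree of freedom in the first pair (p = 1.34e-34) and 33.9 in the second, so both pairs differed by more than sampling noise. Nothing in the labels places the libraries of a group in separate cultures. The p-values therefore measure only how far the libraries of a group spread. This was pooled over all groups but H3.3 wild type, whose libraries were counted as 1 sample. That spread may be technical. For this reason the main counts below are given also with both G34W K36R libraries treated as 1 sample, a choice made with the data in view. Replicate 2 of H3.1 wild type stood apart from replicate 1 in whole classes of genes: the 41 cytosolic ribosomal protein genes had a summed level of 1013240.0 (replicate 1) and 1631560.0 (replicate 2), while the G34W K36R libraries held 1038880.0 and 1037510.0.

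The mesenchymal label was checked against surface markers. Of 12 tested 3 rose (Pdgfra, Eng and Pdgfrb) and 1 fell (Mcam) by limma at an adjusted p under 0.05, which called 13.3% of all genes higher and 12.7% lower; with the pair as 1 sample Pdgfra alone was called. Itgb1, an integrin chain of that list, was at 66480.0 and 64136 in the H3.1 wild-type libraries and at 47896 and 47968 in the G34W K36R libraries. Mcam, a cell adhesion molecule, was at 1187 and 1178 in H3.1 wild type and at 293 and 255 in G34W K36R (log2 fold change -2.11 ± 0.45). The 14 mesenchymal surface markers summed to 109071 to 124410.0 in H3.1 wild type and 105375 to 105446 in G34W K36R. Chondrocyte, osteoblast and contractile genes are described at the end. Of other cell types, the 7 adipocyte markers summed to 2903 to 3405 in H3.1 wild type and 2191 to 2370.2 in G34W K36R, with 1 rise among 4 tested. The 5 neural markers in the table (6 listed) summed to 181 to 298 in H3.1 wild type and 231 to 232 in G34W K36R. Of the 2 tested 1 rose and none fell: Tubb3 was at 51.7 and 33.2 against 146 and 139. The 6 endothelial markers summed to 72.3 to 113 in H3.1 wild type and 337 to 400.1 in G34W K36R, with Tek at 95.5 and 59.6 against 395 and 331, and the 8 macrophage markers to 274 to 399 and 249 to 283, with 2 of the 8 at 0 in all 4 libraries. The 8 skeletal muscle markers summed to 11.3 to 12.9 and 76.4 to 88.1. The part of these cell types in the results was not tested. Pecam1 and Cdh5, which define endothelium, Ptprc, which defines leukocytes, and Myod1, which defines myoblasts, were at no more than 1.95 in any of the 4 libraries. The 4 pluripotency markers summed to no more than 12.95. RNA came from whole cultures, so fewer cells of a type and less RNA per cell cannot be told apart.

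The genes of H3.3 itself were first read as a check of the labels. H3f3a was at 12431 and 17230.0 in H3.1 wild type and at 13489 and 13355 in G34W K36R (log2 fold change -0.12 ± 0.24, limma adjusted p = 0.711). H3f3b was at 24265 and 29883 against 29642 and 29621 (log2 fold change 0.14 ± 0.16, limma adjusted p = 0.512). The groups overlap in both genes. The direction of H3f3a turned without replicate 2 of H3.1 wild type (log2 fold change 0.11) and under quantile normalization (0.06), and that of H3f3b turned without replicate 1 (-0.01). Whether reads of a transgene were counted under these genes was not tested.

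By limma on log2(value + 1), with an adjusted p under 0.05 as the threshold for a call, 3174 of the 12210 genes differed (26%): 1625 were higher in G34W K36R (13.3%) and 1549 lower (12.7%). With the G34W K36R pair counted as 1 sample, 296 genes were called (2.42%), 242 higher (1.98%) and 54 lower (0.442%). That fit still took part of its spread from the close pairs of H3.3 G34W K27R, H3.3 K27R and H3.3 G34R. Over genes with at least 1000 reads their SD of the log2 ratio between replicates was 0.0672, 0.0742 and 0.0679. These calls were lost when every close pair was counted as 1 sample. A call in both counts therefore depends on treating those pairs as replicates. The libraries of the groups did not overlap in 4273 genes higher in G34W K36R (35%) and 4622 lower (37.9%), together 72.9% of all genes. In 966 genes both G34W K36R libraries were at least 2-fold above both H3.1 wild-type libraries (7.91%), and in 411 genes they were at least 2-fold below (3.37%). The median log2 fold change over all genes was -0.016. Leaving out replicate 2 of H3.1 wild type left 697 calls, and leaving out replicate 1 or 2 of G34W K36R left 300 or 316.

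**Figure D1:**
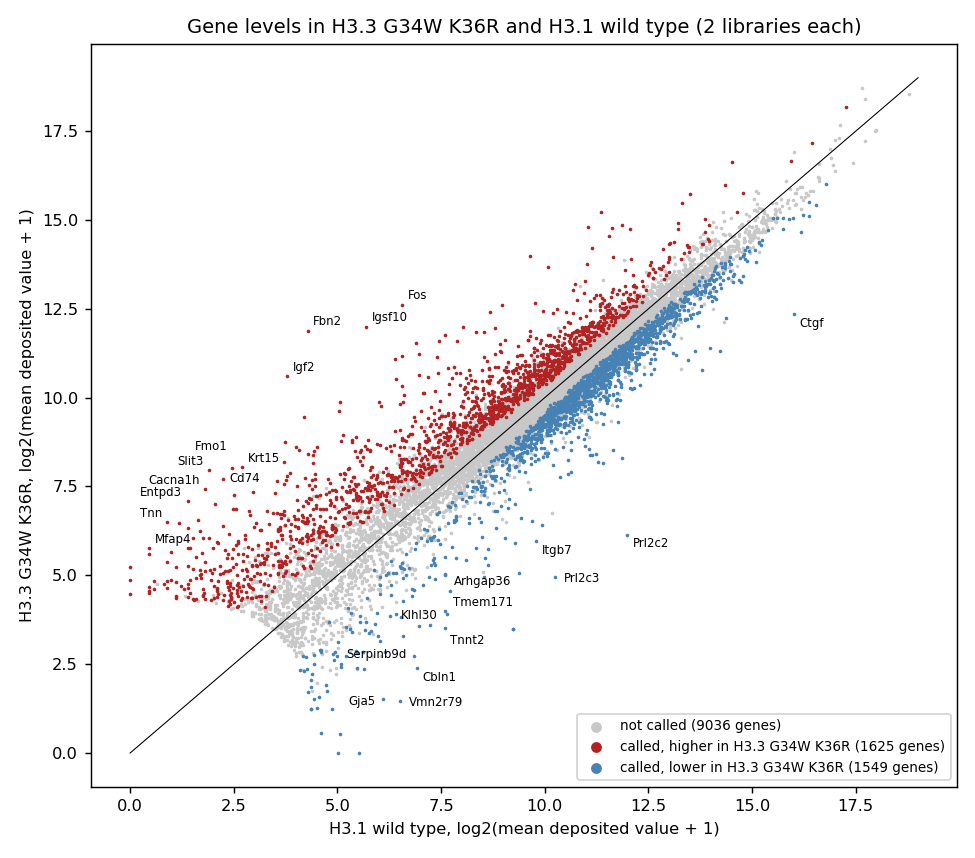
Mean level of each of the 12210 genes in H3.1 wild type (x axis) and H3.3 G34W K36R (y axis), both as log2(mean deposited value + 1) over 2 libraries, with the line of equal levels. Red points are the 1625 genes called higher, blue the 1549 called lower and grey the genes not called; Fbn2, Igf2 and Igsf10 lie farthest above the line among the named genes and Prl2c2 and Ctgf far below it.

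Fbn2, which encodes fibrillin-2, a microfibril protein of elastic fibres, was at 21.2 and 15.6 in the H3.1 wild-type libraries and at 3776 and 3777 in the G34W K36R libraries; below, the values of both H3.1 wild-type libraries stand before "against" and those of both G34W K36R libraries after it. Its log2 fold change was 7.62 ± 0.60 (limma adjusted p = 1.37e-04, and 0.00357 with the pair as 1 sample), the largest among the named genes. Igf2, an imprinted fetal growth factor, was at 12.9 and 12.7 against 1552 and 1556 (log2 fold change 6.82 ± 0.72). Igsf10, a secreted immunoglobulin-domain protein, was at 71.2 and 30.4 against 3981 and 4157 (log2 fold change 6.42 ± 0.73). In these genes the libraries of each group lay close together beside the gap between groups. Fos and Cd74, also among the 12 largest rises, are described with the immediate early and antigen presentation genes. Fmo1, a flavin monooxygenase, rose from 3.03 and 5.86 to 261 and 257, and Krt15, a basal keratin, from 9.10 and 1.95 to 270.0 and 257; the call of Krt15 lay at the edge of the threshold with the pair as 1 sample (limma adjusted p = 0.0492).

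The next rises started from very few reads (on average at most 3 in an H3.1 wild-type library), so their size is given as a ratio of levels with its 95% counting interval. Slit3, a secreted axon guidance ligand, was at 1.52 and 3.91 against 239.7 and 256 (ratio 91.3, interval 41.7 to 249.9). Entpd3, an ectonucleotidase, was at 2.27 and 0.977 against 116 and 153 (ratio 82.7, interval 32.0 to 306). Tnn, the matrix protein tenascin-N, was at 0.758 and 0.977 against 96.9 and 82.0 (ratio 103, interval 28.1 to 857). Cacna1h, a T-type calcium channel, was at 3.03 and 1.95 against 191 and 151 (ratio 68.6, interval 31.2 to 188). All 4 were called in both counts of the pair. Mfap4, a microfibril-associated protein, was at 0.758 and 0 against 45.0 and 61.7 (ratio 141, interval 24.8 to 5607), and its call was lost with the pair as 1 sample (limma adjusted p = 0.0702). Intervals cover counting error only.

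The largest falls, among the 12.7% of all genes called lower, included the proliferins, prolactin-family growth factors encoded by neighbouring Prl2c genes. Prl2c2 was at 2540.2 and 5609 in H3.1 wild type and at 56.9 and 82.8 in G34W K36R (log2 fold change -5.76 ± 0.75, limma adjusted p = 0.00164, and 0.021 with the pair as 1 sample). Prl2c3 was at 792 and 1639 against 33.1 and 27.4 (log2 fold change -5.20 ± 0.65). Prl2c4 was at 27.9 and 34.2 and at 0 in both G34W K36R libraries, which puts it at least 11.1-fold lower against a floor of 3 reads per library. All 3 tested members of the list fell, 2 of them with the pair as 1 sample, and since the Prl2c genes are close copies their reads could have been split between them. Itgb7, an integrin chain, fell from 785 and 989.9 to 69.5 and 53.8 (log2 fold change -3.83 ± 0.48, called in both counts of the pair).

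The calls of the next falls were lost with the pair as 1 sample. Ctgf, a matricellular target of TGF-beta and YAP, was at 60168 and 71105 against 5164 and 5227 (log2 fold change -3.65 ± 0.83, limma adjusted p = 0.0154, and 0.0947 with the pair as 1 sample), while Cyr61, its close relative and a target of the same pathways, was at 19876 and 22764 against 21823 and 21508 and its groups overlapped. Arhgap36, a GTPase-activating protein, was at 777 and 550.1 against 30.3 and 35.3. Cbln1, a secreted synapse organiser, was at 91.2 and 149.5 against 5.87 and 2.64. Tnnt2, cardiac troponin T, was at 151 and 231 against 5.87 and 14.986. Gja5, a gap junction protein, was at 66.0 and 69.4 against 1.96 and 1.76 (ratio 36.4, 95% counting interval 13.9 to 135), and Vmn2r79, annotated as a vomeronasal receptor, at 84.2 and 96.7 against 3.52 and 0 (ratio 51.4, 95% counting interval 18.9 to 209). Klhl30 and Tmem171 were also among the 12 largest falls, with log2 fold changes of -3.73 ± 1.12 and -3.67 ± 1.08, and so was Serpinb9d, described with its family below.

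Among the most abundant genes called, the changes were smaller. Col1a2, a chain of type I collagen, was at 173330.0 and 141430.0 against 298070.0 and 292650.0 (log2 fold change 0.92 ± 0.22). Scd2, a fatty acid desaturase, was at 27905 and 18973 against 101710.0 and 101380.0 (log2 fold change 2.14 ± 0.45). Nedd4, a ubiquitin ligase, Col12a1, a fibril-associated collagen, and Prrx1, a homeobox factor of limb mesenchyme, had log2 fold changes of 0.79, 1.85 and 0.99. On the other side, Anxa1, an annexin, was at 69245 and 79778 against 25455 and 25830.0 (log2 fold change -1.54 ± 0.35), and Hsp90aa1, an inducible chaperone, at 73433 and 95322 against 35276 and 35380.0 (log2 fold change -1.24 ± 0.23). Ncl (nucleolin), Tuba1b (a tubulin), Lgals1 (galectin-1) and Ftl1 (ferritin light chain) had log2 fold changes of -1.06, -1.11, -0.79 and -0.73. None of these abundant genes was called with the pair as 1 sample.

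**Figure D2:**
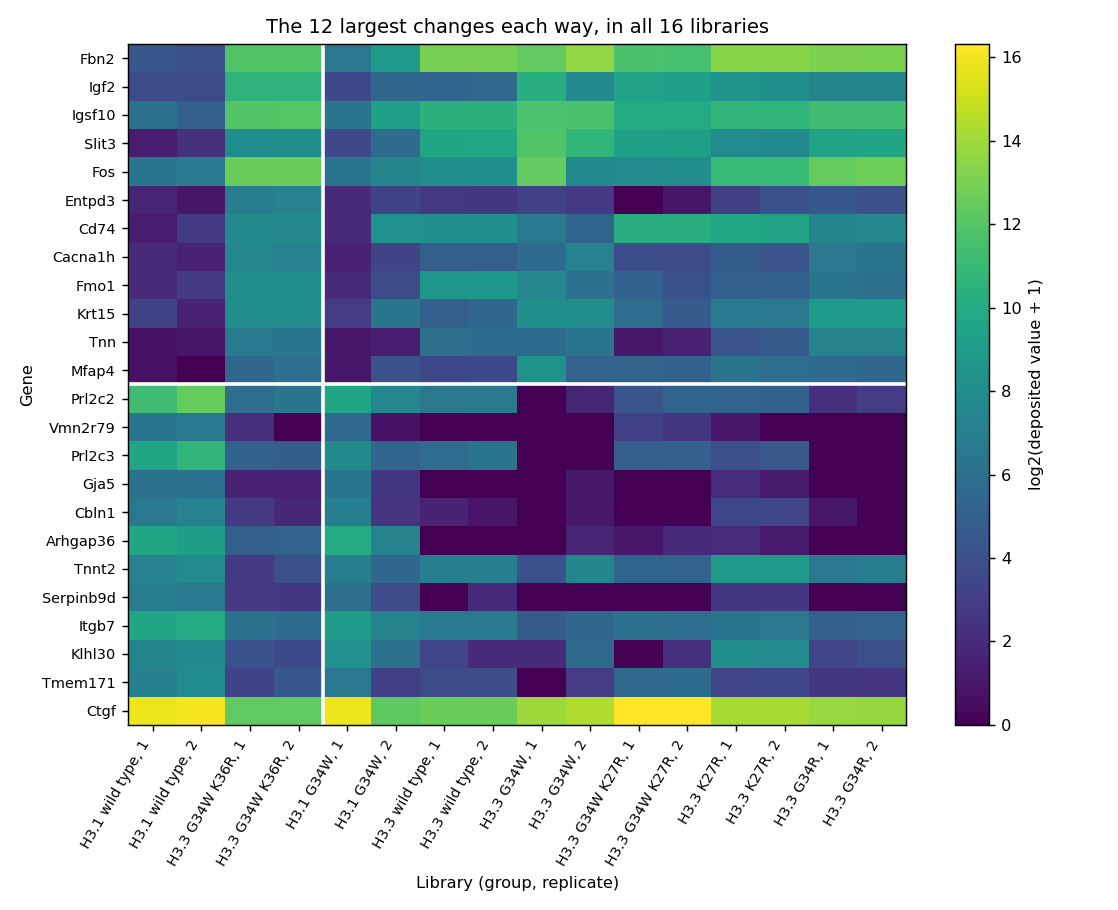
Level of the 12 largest rises (upper block) and 12 largest falls (lower block) in all 16 libraries, coloured by log2(deposited value + 1); the 2 compared groups are left of the white line. Replicate 1 of H3.1 G34W resembles the H3.1 wild-type columns in most rows, and replicate 2 lies between them and the G34W K36R columns in many.

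The other groups place these levels. H3.1 G34W held Fbn2 at 92.2 and 449.6, and the 10 remaining H3.3 libraries at 3051 to 13283, so G34W K36R lay near the low end of the H3.3 groups. H3.1 G34W held Igf2 at 11.4 and 43.1 and H3.3 wild type at 39.7 and 46.5, and G34W K36R had the highest level of all 16 libraries. Entpd3 stood above 21.6 only in the 2 G34W K36R libraries. Over the 12210 genes the first principal component (49.3% of the variance) placed H3.1 wild type at 98.2 and 94.8, H3.1 G34W at 94.3 and 59.0, G34W K36R at 34.6 and 35.1 and the other 10 libraries between -64.2 and -21.3. Across genes, which are not independent replicates, the Pearson correlation of the G34W K36R libraries was 0.996 with each other, 0.971 with replicate 2 of H3.1 G34W (both libraries), 0.947 with replicate 1 and 0.924 to 0.925 with replicate 2 of H3.1 wild type. These are levels set side by side, and the compared groups were not tested against the other groups here.

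Genes of the extracellular matrix were read in 4 lists. For each of these lists, the share of all genes called was 13.3% higher and 12.7% lower. Small leucine-rich proteoglycans are matrix proteins that bind collagen fibrils and growth factors. All 8 tested of 10 listed rose (median log2 fold change 2.61 against -0.016 over all genes), 3 of them with the pair as 1 sample and 5 without replicate 2 of H3.1 wild type. Aspn (asporin) was at 878 and 726 in H3.1 wild type and at 16204 and 16194 in G34W K36R (log2 fold change 4.34 ± 0.55, limma adjusted p = 0.00143). Ogn (osteoglycin) was at 3344 and 2936 against 27587 and 27938 (log2 fold change 3.15 ± 0.40), and Fmod (fibromodulin) at 6.82 and 5.86 against 112 and 110.2 (log2 fold change 3.94 ± 0.66). Both G34W K36R libraries were above both H3.1 wild-type libraries in all 8 genes (35% of all genes). Bgn (biglycan) and Dcn (decorin) had log2 fold changes of 0.71 and 2.08.

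Elastic fibres are built of elastin on a scaffold of fibrillins, fibulins and latent TGF-beta binding proteins, cross-linked by lysyl oxidases. Of 19 tested members of the list 10 rose and none fell (median log2 fold change 0.60), 6 rose with the pair as 1 sample, and 6 members without a call lay lower without overlap. Among all genes 37.9% lay lower without overlap. Eln, elastin itself, was at 13.6 and 9.77 against 63.7 and 75.8 (log2 fold change 2.49 ± 0.33, limma adjusted p = 0.00175), yet its level in G34W K36R stayed below the 9424 to 326260.0 of the other H3.3 libraries. Fbln1 (fibulin-1) was at 22.7 and 16.6 against 149.7 and 134 (log2 fold change 2.80 ± 0.44). The lysyl oxidase genes of the list (Lox and Loxl1 to Loxl4) were not among the calls.

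Collagen chains gave 8 rises and no fall among 19 tested (median log2 fold change 0.96), 4 of them with the pair as 1 sample, and 4 members without a call lay lower without overlap. The share of all genes lower without overlap was 37.9%. Col8a2, a chain of the network-forming type VIII collagen, was at 26.5 and 37.1 against 812 and 774 (log2 fold change 4.61 ± 0.56). Col6a1, a chain of the beaded-filament type VI collagen, was at 3694 and 2278 against 24011 and 23480.0 (log2 fold change 3.03 ± 0.28, limma adjusted p = 3.23e-04), and Col6a2, its partner chain, at 1316 and 857 against 13360.0 and 12837 (log2 fold change 3.62 ± 0.31). Col27a1, a fibrillar collagen of cartilage, was at 81.1 and 70.4 against 384 and 407 (log2 fold change 2.37 ± 0.24). Col1a1, the other chain of type I collagen, was at 259230.0 and 175780.0 against 349920.0 and 342310.0 and did not pass the threshold (limma adjusted p = 0.303). Of 17 tested matrix proteases and inhibitors 6 rose and none fell (3 with the pair as 1 sample), led by Adamts4, an aggrecanase, at 50.8 and 44.9 against 333 and 309.

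Genes of 3 developmental signalling pathways followed, read beside 13.3% of all genes called higher and 12.7% lower. Wnt ligands act through Frizzled and LRP receptors, and R-spondins strengthen the signal while SFRP proteins bind the ligands. Of 26 tested Wnt genes 14 rose and none fell (median log2 fold change 1.31), 8 with the pair as 1 sample and 9 without replicate 2 of H3.1 wild type. The R-spondin Rspo3 was at 77.3 and 107 against 2314 and 2281 (log2 fold change 4.64 ± 0.76), and Rspo2 at 4865 and 3638 against 27211 and 27386 (log2 fold change 2.70 ± 0.39). Sfrp2, a secreted antagonist, was at 6.82 and 2.93 against 61.6 and 52.9 (log2 fold change 3.39 ± 0.52). Nkd1, an intracellular feedback inhibitor and known Wnt target, was at 12.1 and 19.5 against 347 and 383 (log2 fold change 4.48 ± 0.58). Axin2, another known target, was below the threshold for testing with 17.4 and 3.91 against 9.78 and 2.64, and Lef1 had a log2 fold change of -0.05 ± 0.26 with no call. The called members therefore included activators, antagonists and feedback genes.

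Hedgehog ligands act on Patched, helped by the co-receptors Boc, Cdon and Gas1, and the signal reaches the Gli factors. Of 10 tested genes 4 rose and none fell (median log2 fold change 1.39), 2 with the pair as 1 sample. All 3 co-receptors were among them: Boc was at 313 and 206 against 4062 and 4104 (log2 fold change 4.00 ± 0.45, limma adjusted p = 8.67e-04), Gas1 at 3753 and 3684 against 28494 and 30279 (log2 fold change 2.98 ± 0.51), and Cdon at 926 and 425 against 2351 and 2338 (log2 fold change 1.90 ± 0.46). Gli2, a transcription factor of the pathway, had a log2 fold change of 1.78 ± 0.26. Boc and Gli2 kept their call with the pair as 1 sample, and Gas1 and Cdon lost it. The common target genes Gli1 (23.5 and 33.2 against 51.8 and 63.5, limma adjusted p = 0.301) and Ptch1 (354 and 65.3 against 529 and 607, limma adjusted p = 0.0544) did not pass the threshold. The ligands Shh, Ihh and Dhh were below the threshold for testing. Beside the 4 rises of this list, 13.3% of all genes were called higher and 12.7% lower.

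In the Notch pathway, where Delta and Jagged ligands on one cell activate receptors on the next, 4 of 11 tested genes rose and none fell (median log2 fold change 0.58), 2 with the pair as 1 sample. The receptor Notch3 was at 290.4 and 181 against 3003 and 3167 (log2 fold change 3.74 ± 0.65), and the receptor Notch1 at 428 and 211 against 1433 and 1388 (log2 fold change 2.23 ± 0.30). The ligand Jag1 was at 1249.8 and 899 against 3518 and 3406 (log2 fold change 1.71 ± 0.21), and Dll1 at 7.58 and 6.84 against 36.2 and 39.7. The target gene Hes1 was at 536 and 840.4 against 583 and 600.3, with overlapping groups. These 4 rises of Notch genes stand beside 13.3% of all genes called higher and 12.7% lower. The platelet-derived growth factor receptor Pdgfra, a mesenchymal progenitor marker, was at 1124 and 609.8 against 6481 and 6599 (log2 fold change 2.98 ± 0.40, limma adjusted p = 0.00187, and 0.0248 with the pair as 1 sample).

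**Figure D3:**
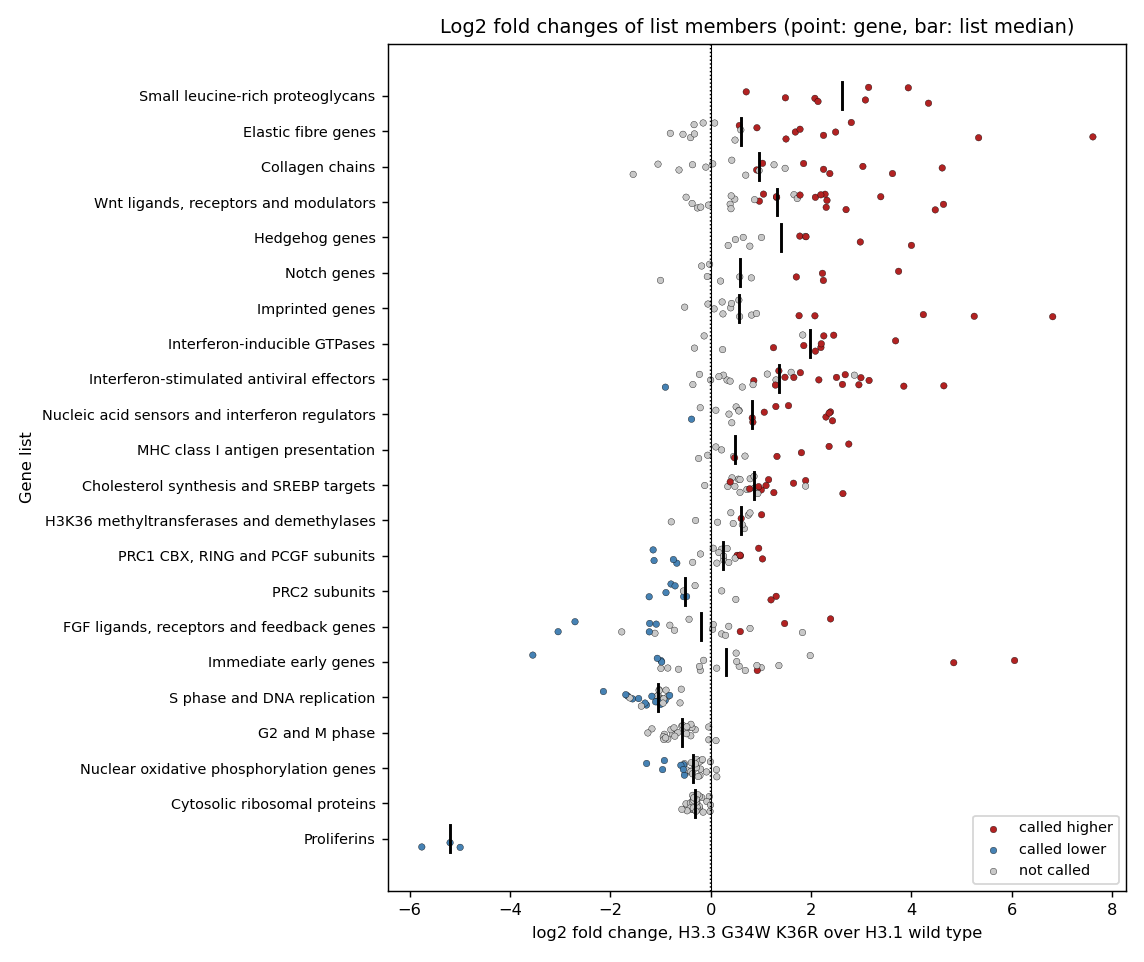
Log2 fold change (x axis, H3.3 G34W K36R over H3.1 wild type) of each tested member of 22 gene lists (rows); a point is 1 gene, coloured by its call, a bar is the median of the list and the dotted line the median of all genes (-0.016). Proteoglycan, Wnt, Hedgehog and interferon-inducible GTPase members lie mostly to the right, proliferins and S phase genes to the left.

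Imprinted genes are expressed from 1 parental allele, and several drive fetal growth. Their counts stand beside 13.3% of all genes called higher and 12.7% lower. Of 16 tested 5 rose and none fell (median log2 fold change 0.57), 3 of them with the pair as 1 sample. Mest was at 125 and 125 in H3.1 wild type and 2364 and 2393 in G34W K36R (log2 fold change 4.24 ± 0.40, limma adjusted p = 3.51e-04, and 0.00713 with the pair as 1 sample). Dlk1, a membrane inhibitor of adipocyte differentiation, was at 5.31 and 19.5 against 441 and 425 (log2 fold change 5.25 ± 0.64). With Igf2 these were the 3 called in both counts; Dcn and Slc22a18 completed the 5. Mest was at 92.0 and 89.1 in the H3.3 wild-type libraries, below both compared groups, and at 4590.0 and 5234 in H3.3 G34W, above both. Igf1, a growth factor that shares a receptor with Igf2, was at 18.2 and 20.5 against 149 and 135 (log2 fold change 2.81 ± 0.45).

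The CDK inhibitors encoded at the Ink4 locus, which restrain the G1 to S step and are classic Polycomb targets, were low but higher in G34W K36R. Cdkn2a was at 5.31 and 4.89 against 27.4 and 25.6 (log2 fold change 2.17 ± 0.31, limma adjusted p = 0.00237, and 0.0323 with the pair as 1 sample). Cdkn2b was at 1.52 and 5.86 against 36.2 and 29.1 (log2 fold change 3.01 ± 0.47, limma adjusted p = 0.00393, and 0.04 with the pair as 1 sample). They were the 2 members called of 6 tested, beside 13.3% of all genes called higher and 12.7% lower. Mtap, the neighbouring metabolic gene, was at 11291 and 11983 against 15058 and 15104 (log2 fold change 0.37 ± 0.23, limma adjusted p = 0.238). Cdkn2a reached 427 and 456 in H3.3 G34W K27R and was at 0.968 and 0 in H3.3 wild type, so both compared groups lay low in the range of the series.

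Genes of DNA replication were lower in G34W K36R. All 27 S phase genes had both G34W K36R libraries below both H3.1 wild-type libraries (37.9% of all genes did). Their median log2 fold change was -1.05, and 13 passed the threshold, all of them falls (12.7% of all genes fell). None passed in limma with the pair as 1 sample (14 at an unadjusted p under 0.05) or without replicate 2 of H3.1 wild type (6). Ccne2, a cyclin of S phase entry, was at 2723 and 2709 against 604 and 627 (log2 fold change -2.14 ± 0.58, limma adjusted p = 0.0261). Cdc6, a loader of the replicative helicase, was at 1832 and 1779 against 575 and 568, and Cdt1, which acts with it, at 3527 and 3823 against 1179.7 and 1317. The helicase subunits Mcm5, Mcm6 and Mcm7 had log2 fold changes of -1.05 ± 0.46, -1.03 ± 0.38 and -0.86 ± 0.32 and did not pass the threshold.

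Genes of G2 and mitosis showed no limma call in either direction among 25 tested (6 at an unadjusted p under 0.05), with a median log2 fold change of -0.58 and 22 of the 25 lower without overlap (37.9% of all genes were). With the 2 compared groups alone in the fit, limma called 12 of the 25 lower. Centred on its mean over all 16 libraries, the median member stood at 1.06 and 0.989 on the log2 scale in H3.1 wild type. It stood at 0.400 and 0.399 in G34W K36R and at 0.951 and -0.219 in H3.1 G34W. In Mki67, the proliferation marker, the H3.1 wild-type libraries disagreed. Mki67 was at 28677 and 10296, on either side of the 18179 and 18781 of G34W K36R (log2 fold change 0.10 ± 0.55, limma adjusted p = 0.895, and -0.63 on the log2 scale without replicate 2). Top2a, a topoisomerase of dividing cells, was at 28263 and 19688 against 18055 and 18300.0. In H3.1 G34W, Ccne2 was at 2392 and 483 and Cdc6 at 1640.3 and 387, with replicate 1 near H3.1 wild type and replicate 2 below G34W K36R.

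E2F factors switch on many S phase genes at a short promoter motif. The motif searched was TTTNNCGC, on both strands, in the 250 bases before the annotated start (RefSeq, GRCm38.p6, used here for sequence only since the counts were made on mm9). It was present at 6 of 23 tested S phase genes with a promoter in the table (26.1%), at 1 of 21 G2 and M genes (4.76%) and at 804 of 9710 of all tested genes (8.28%). Called S phase genes with a promoter held it in 2 of 10 cases (20%). The windows of Cdc6 and Mcm6, chosen after their values were seen because they hold the match, are shown 5′ to 3′ on the strand of the gene, with each match in capitals. A match describes the letters and does not show binding.
Cdc6 (chr11:98907936-98908035, plus strand, 215 to 116 bases before the start): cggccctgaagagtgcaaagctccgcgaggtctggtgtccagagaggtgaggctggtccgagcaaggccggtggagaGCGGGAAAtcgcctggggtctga
Mcm6 (chr1:128359730-128359829, minus strand, 124 to 25 bases before the start): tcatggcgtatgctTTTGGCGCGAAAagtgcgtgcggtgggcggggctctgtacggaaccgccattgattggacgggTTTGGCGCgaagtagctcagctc

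Interferon-stimulated genes were higher in G34W K36R. Cells that sense foreign nucleic acids or interferon engage transcription factors that act on the interferon-stimulated response element (ISRE) of antiviral effectors. Of 29 tested effectors 15 rose and 1 fell (median log2 fold change 1.36), beside 13.3% and 12.7% of all genes. Both G34W K36R libraries were above both H3.1 wild-type libraries in 25 of the 29 (35% of all genes). With the pair as 1 sample 1 of the effectors, Sp100, was called, and without replicate 2 of H3.1 wild type 1 rose and 1 fell. Mx2, an antiviral GTPase, was at 0.758 and 2.93 against 73.2 and 57.4 (ratio 35.4, 95% counting interval 13.5 to 132). Ifit1, which binds foreign RNA, was at 46.7 and 52.0 against 384 and 416 (log2 fold change 2.99 ± 0.78, limma adjusted p = 0.0235, and 0.117 with the pair as 1 sample). Trim30a was at 12.9 and 7.82 against 138 and 182, and Oasl2 at 2.27 and 3.91 against 39.1 and 30.9. The 1 fall was Ifit2, a neighbour and relative of Ifit1, at 3604 and 2945 against 1682 and 1802 (log2 fold change -0.90 ± 0.17).

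Of 12 tested interferon-inducible GTPases, which attack the vacuoles of intracellular pathogens, 8 rose and none fell (median log2 fold change 1.97), 2 with the pair as 1 sample (Gbp3 and Gbp6) and 4 without replicate 2 of H3.1 wild type. Shares of all genes called were 13.3% higher and 12.7% lower. Tgtp2 was at 19.6 and 66.2 against 494 and 462 (log2 fold change 3.68 ± 0.69, limma adjusted p = 0.00793), and Gbp6 at 26.2 and 16.6 against 119.6 and 118 (log2 fold change 2.45 ± 0.40). Tgtp1, a close copy of Tgtp2, had a log2 fold change of -0.13 ± 0.62, and reads could have been split between these copies, so both values are uncertain. The genes of the GTPase list summed to 9182 and 6211 against 8435 and 8365, so the sums of the groups overlapped.

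Upstream of these effectors, 9 of 17 tested sensors and regulators rose and 1 fell (median log2 fold change 0.83), 2 with the pair as 1 sample and 2 without replicate 2 of H3.1 wild type. Stat2 was at 577 and 413 against 2509 and 2513 (log2 fold change 2.36 ± 0.47), and Irf7, the factor that amplifies interferon production, at 11.4 and 7.82 against 54.8 and 55.5 (log2 fold change 2.43 ± 0.78). The RNA sensor Ifih1 was at 22.7 and 15.6 against 103 and 103. Tmem173, which encodes the DNA-sensing adaptor STING, was at 25.002 and 29.3 against 145 and 129.6 (log2 fold change 2.30 ± 0.34, limma adjusted p = 0.00311, and 0.0372 with the pair as 1 sample). In MHC class I presentation 5 of 11 tested genes rose and none fell, 1 with the pair as 1 sample (Tapbp) and 3 without replicate 2 of H3.1 wild type. Among the 5 were the peptide transporter genes Tap1 (39.4 and 43.0 against 232 and 200.1) and Tap2 (55.3 and 52.8 against 372 and 368), whose limma adjusted p was 0.0549 and 0.0718 with the pair as 1 sample. Beside the counts of the sensors and of the class I genes, limma called 13.3% of all genes higher and 12.7% lower. The median log2 fold change of the class I list was 0.48. Its genes summed to 17859 and 25233 against 21844 and 22251, so the sums of the groups overlapped. Cd74, the class II invariant chain, was at 1.52 and 5.86 against 210.3 and 208 (limma adjusted p = 0.0226, and 0.115 with the pair as 1 sample).

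The other groups lay on both sides of these levels. Ifit1 was at 27474 and 26228 in H3.3 G34W K27R, at 5246 and 5708 in H3.3 K27R and at 799.7 and 787 in H3.3 wild type, above the 384 and 416 of G34W K36R, and at 219.5 and 298 in H3.3 G34W, below it. The H3.1 G34W libraries held it at 37.7 and 419. Centred on its mean over all 16 libraries, the median effector gene stood at -2.37 and -2.08 on the log2 scale in H3.1 wild type, at -0.698 and -0.742 in G34W K36R, at -2.06 and -0.731 in H3.1 G34W, at -1.08 and -0.814 in H3.3 G34W and at 3.39 and 3.37 in H3.3 G34W K27R. H3.1 wild type and replicate 1 of H3.1 G34W held the lowest of the 16 values.

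The ISRE core, taken as GAAA, any 2 bases and GAAA, was searched on both strands of the same 250-base windows; overlapping matches count as 1 stretch of capitals. It was present at all 7 tested interferon-inducible GTPases with a promoter in the table, at 6 of 21 tested effectors (28.6%) and at 300 of 9710 of all tested genes (3.09%). Called members with a promoter held it at 5 of 5 GTPases and at 3 of 11 effectors (27.3%). The windows below show 4 GTPase genes and 2 effectors that were called higher, chosen after their values were seen, 5′ to 3′ on the strand of the gene with each match in capitals (TTTC marks a match on the other strand).
Gbp3 (chr3:142559930-142560029, plus strand, 114 to 15 bases before the start): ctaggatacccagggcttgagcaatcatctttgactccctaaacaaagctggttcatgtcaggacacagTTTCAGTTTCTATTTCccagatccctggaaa
Igtp (chr11:58199447-58199546, plus strand, 109 to 10 bases before the start): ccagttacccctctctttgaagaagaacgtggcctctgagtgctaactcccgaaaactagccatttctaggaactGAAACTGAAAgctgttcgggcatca
Irgm2 (chr11:58214838-58214937, plus strand, 139 to 40 bases before the start): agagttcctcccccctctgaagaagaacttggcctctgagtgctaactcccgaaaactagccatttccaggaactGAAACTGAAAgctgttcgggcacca
Tgtp2 (chr11:49064258-49064357, minus strand, 145 to 46 bases before the start): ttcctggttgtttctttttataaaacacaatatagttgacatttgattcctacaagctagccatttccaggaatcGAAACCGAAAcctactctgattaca
Ifit1 (chr19:34640729-34640828, plus strand, 160 to 61 bases before the start): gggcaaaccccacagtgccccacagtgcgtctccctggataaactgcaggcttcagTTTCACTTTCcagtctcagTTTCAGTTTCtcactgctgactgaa
Isg15 (chr4:156200860-156200959, minus strand, 141 to 42 bases before the start): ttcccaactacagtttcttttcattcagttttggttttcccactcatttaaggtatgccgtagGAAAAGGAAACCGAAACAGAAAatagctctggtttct
Beside these sequences, Gbp3 was at 20.5 and 29.3 against 88.0 and 94.6, Igtp at 37.4 and 39.8 against 161 and 174, Irgm2 at 34.7 and 25.7 against 146 and 136, and Isg15, a ubiquitin-like modifier, at 9.86 and 19.5 against 91.0 and 98.7.

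Of 21 tested chemokines, cytokines and NF-kB response genes 4 rose and 4 fell (median log2 fold change 0.35), beside 13.3% and 12.7% of all genes, and 1 rose and 1 fell without replicate 2 of H3.1 wild type. Ccl2, a monocyte chemokine, was at 2904 and 4342 against 1025 and 934 (log2 fold change -1.86 ± 0.37), and Ptgs2, the inducible cyclooxygenase, at 17025 and 15189 against 2719 and 2713 (log2 fold change -2.57 ± 0.64). Ccl9 was at 1504 and 2809 against 397 and 359.9 (log2 fold change -2.44 ± 0.31) and was the 1 member called with the pair as 1 sample. The complement gene C3 was at 108 and 61.6 against 1510.5 and 1433 (log2 fold change 4.16 ± 0.87). The protease inhibitor genes Serpina3g, Serpina3i, Serpina3n and Serpina3f all rose, 2 of 4 with the pair as 1 sample: Serpina3g was at 54.4 and 75.1 against 874 and 854 (log2 fold change 3.74 ± 0.51), and Serpina3n started from few reads at 0.781 and 3.02 against 26.4 and 11.4 (ratio 9.94, 95% counting interval 3.64 to 37.3). These neighbouring genes are close copies, so reads could have been split among them.

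Cholesterol synthesis genes are switched on together by SREBP2 when sterols are low. Of 24 tested 10 rose and none fell (median log2 fold change 0.87), beside 13.3% and 12.7% of all genes. Both G34W K36R libraries were above both H3.1 wild-type libraries in 23 of the 24 (35% of all genes). None was called by limma with the pair as 1 sample (10 at an unadjusted p under 0.05) or without replicate 2 of H3.1 wild type (14). The SREBP motif SRE-1, searched by the letters TCACNCCAC on both strands of the promoter windows, was present at 0 of 16 tested genes of the list with a promoter in the table and at 115 of all 9710 (1.18%). Dhcr7, which makes the last step to cholesterol, was at 407 and 329 against 2351 and 2209.9 (log2 fold change 2.63 ± 0.58, limma adjusted p = 0.0141). Mvd, which acts in the mevalonate steps, was at 787 and 975 against 3310.5 and 3198, and Lss, which closes the sterol rings, at 2669.5 and 1964 against 7259 and 7120.2. Replicate 2 of H3.1 G34W stood at 2302 for Dhcr7, beside G34W K36R, and replicate 1 at 432, beside H3.1 wild type.

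Of 22 tested immediate early genes, induced within minutes by growth factors and stress, 3 rose and 4 fell, near the share of all genes (13.3% and 12.7%). With the pair as 1 sample 1 rose, and without replicate 2 of H3.1 wild type 3 rose and none fell. Fos, a subunit of AP-1, was at 85.7 and 102 against 6305 and 6252 (log2 fold change 6.06 ± 1.07, limma adjusted p = 0.00638, and 0.0563 with the pair as 1 sample), and Fosb at 26.5 and 38.1 against 935 and 948 (log2 fold change 4.84 ± 0.73, called in both counts). Fos also differed widely within 1 group, at 5399 and 218 in the 2 libraries of H3.3 G34W. H3.3 G34R held Fos at 5667 and 6655. Between the compared groups Fosl1, another AP-1 subunit and a target of ERK signalling, went the other way from Fos and Fosb. Fosl1 fell from 3473 and 3909.8 to 313 and 316 (log2 fold change -3.55 ± 0.80), and Myc from 4738 and 5412 to 2463 and 2377 (log2 fold change -1.07 ± 0.31). Both falls lost their call with the pair as 1 sample (limma adjusted p = 0.0937 and 0.143). Among FGF ligands, receptors and feedback genes 3 of 20 tested rose and 5 fell, beside 13.3% and 12.7% of all genes. The falls (Dusp4, Dusp6, Etv1, Etv4 and Etv5) were target and feedback genes of ERK signalling. Dusp4, an ERK phosphatase, was at 4255 and 2182 against 366 and 372 (log2 fold change -3.04 ± 0.52), and the ETS factor Etv4 at 1325 and 1678 against 219.7 and 236 (log2 fold change -2.71 ± 0.52). The receptor Fgfr2 was at 738 and 655 against 1954 and 1907 (log2 fold change 1.47 ± 0.12, limma adjusted p = 1.37e-04) and the ligand Fgf18 at 31.1 and 29.3 against 179 and 147, both called also with the pair as 1 sample. The 5 falls were lost with the pair as 1 sample, and 4 were called without replicate 2 of H3.1 wild type.

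Genes of the enzymes that act on K27 and K36 moved by smaller amounts. Beside their counts, limma called 13.3% of all genes higher and 12.7% lower. PRC2, which methylates K27, showed 2 rises and 6 falls among 12 tested genes (median log2 fold change -0.51), none of them called by limma with the pair as 1 sample (8 at an unadjusted p under 0.05). The core subunits were each lower: Ezh2 was at 3582 and 3812 against 2056 and 2214 (log2 fold change -0.79 ± 0.24, limma adjusted p = 0.0365), Suz12 at 7737 and 6713 against 4433 and 4374 (log2 fold change -0.71 ± 0.20), and Eed at 1498 and 2046 against 905 and 982 (log2 fold change -0.89 ± 0.22). Ezh1, the catalytic subunit of non-dividing cells, rose from 597 and 503 to 1357 and 1352 (log2 fold change 1.30 ± 0.34), and so did Jarid2, a PRC2 cofactor (382 and 252 against 716 and 713). E130012A19Rik, the gene of the elongin-binding PRC2 partner EPOP, had a log2 fold change of -1.23 ± 0.37. Of the 20 PRC1 genes 5 rose and 4 fell, none in limma with the pair as 1 sample (9 at an unadjusted p under 0.05).

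Of 11 genes for K36 methyltransferases and demethylases 2 rose, the demethylases Kdm4a (log2 fold change 1.01 ± 0.24) and Kdm4b (0.61 ± 0.19), and none fell; with the pair as 1 sample limma called none of the 11 (3 at an unadjusted p under 0.05). The share of all genes called higher was 13.3%, and that called lower was 12.7%. Setd2, which writes trimethylated K36, was at 5760.1 and 2616 in H3.1 wild type, on either side of the 5213 and 5382 of G34W K36R (log2 fold change 0.45 ± 0.29, and -0.12 without replicate 2 of H3.1 wild type). Of the writers of dimethylated K36, Nsd1 was at 5969.7 and 2583 against 6553 and 6660.2 (limma adjusted p = 0.0763) and Whsc1 at 8279 and 5871 against 4092 and 3992 (limma adjusted p = 0.105). Without replicate 1 of H3.1 wild type 8 of the 11 were called higher and 1 lower, so these calls rest on which of its libraries is used.

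Among genes of H3.3 and H3 chaperones 3 of 14 fell and none rose, and limma called none with the pair as 1 sample (3 at an unadjusted p under 0.05). Among all genes 12.7% fell and 13.3% rose. Of the 3 falls Nasp, a chaperone of soluble H3, was at 4357 and 5018 against 1983 and 1987 (log2 fold change -1.24 ± 0.34), and Dek and Asf1a were the others. Hist1h3b, a replication-dependent H3 gene, was at 3156 and 1689 against 401 and 279 (log2 fold change -2.78 ± 0.52); its relatives have near-identical coding sequences and mostly lack poly(A) tails, so these reads are uncertain. Of 7 tested genes for DNA methylation writers and erasers 3 rose, the oxidases Tet1 and Tet2 and the methyltransferase Dnmt3a. Tet1 was at 13.6 and 9.77 against 114 and 96.1 (log2 fold change 3.07 ± 0.51, limma adjusted p = 0.00526), called also with the pair as 1 sample.

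Calls in 1 direction also lay side by side in the order of genes along the chromosomes (RefSeq, GRCm38.p6, used for order only); these families were chosen after their values were seen. The beta protocadherins are single-exon cell adhesion genes in tandem on chromosome 18. The table holds 22, and of the 16 tested 13 rose and none fell (median log2 fold change 2.54), 3 with the pair as 1 sample, and all 16 were higher without overlap (35% of all genes were). Beside these 13 rises, limma called 13.3% of all genes higher and 12.7% lower. The summed level of the family was 1207 and 838 in H3.1 wild type and 4223 and 4044 in G34W K36R. Pcdhb19 was at 47.2 and 28.4 against 252 and 269 (log2 fold change 2.79 ± 0.39), and Pcdhb16 at 409 and 247 against 1249 and 1196 (log2 fold change 1.94 ± 0.31). Of 21 tested gamma protocadherins, which share their last exons, 11 rose (median log2 fold change 1.02), and limma called none with the pair as 1 sample (11 at an unadjusted p under 0.05). Their summed level was 20346 and 14966 in H3.1 wild type and 24348 and 23929 in G34W K36R. None of the 14 alpha protocadherins reached the threshold for testing.

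The Serpinb9 genes, granzyme inhibitor paralogs in a cluster on chromosome 13, went the other way. Of 7 tested 5 fell (4 with the pair as 1 sample), all 7 were lower without overlap (37.9% of all genes were), and the median log2 fold change was -2.79. Limma called 12.7% of all genes lower. Serpinb9d was at 116 and 112 against 5.87 and 5.29 (log2 fold change -4.13 ± 0.63, limma adjusted p = 0.00349). Serpinb9b was at 11193 and 8807 against 1789 and 1772 and did not pass the threshold (limma adjusted p = 0.0605), and Serpinb9 was at 8298 and 6211 against 5767 and 6173. Members of both families are close copies, so reads could have been split between them. Of all runs of neighbouring tested genes called in 1 direction, 52 of at least 3 genes were higher and 27 lower. With 13.3% of all genes called higher and 12.7% lower, some such runs are to be found in any order of genes. Their expected number was not computed, so the counts do not show clustering. The longest runs were 12 beta protocadherins, 9 gamma protocadherins and, among falls, 7 genes from Serpinb9c to Nqo2. Others held the proteoglycan genes Ecm2, Aspn, Omd and Ogn, and the Serpina3 genes with Gsc.

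**Figure D4:**
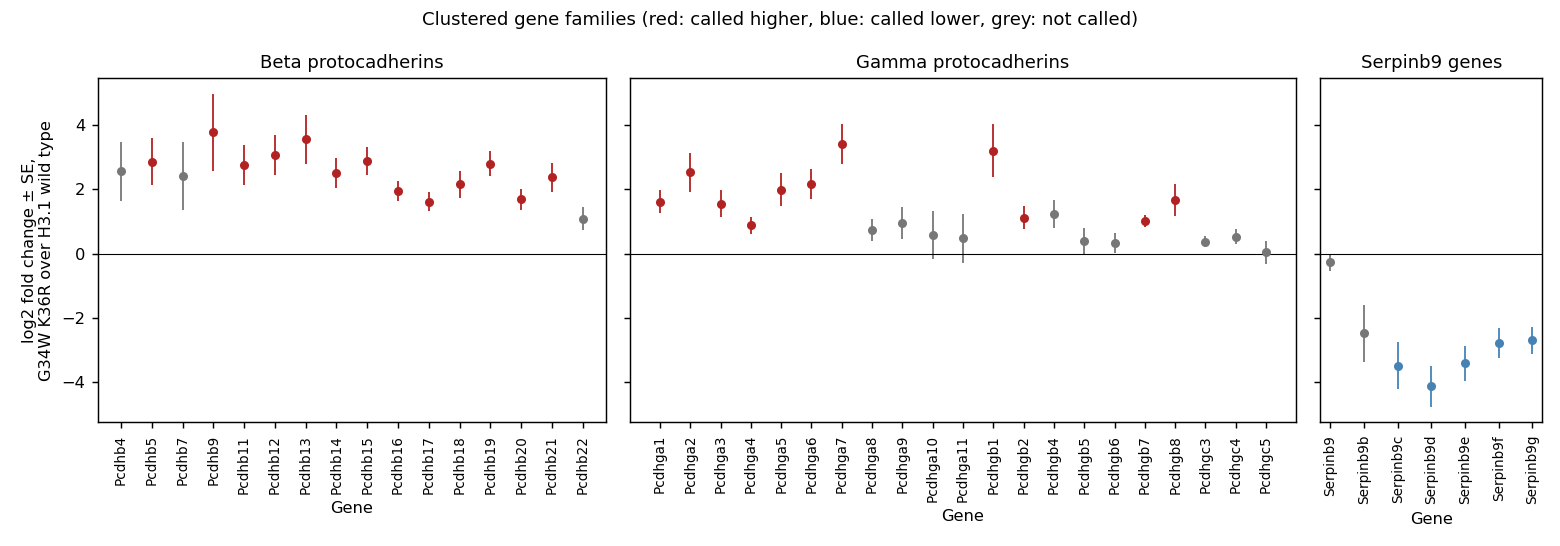
Log2 fold change with its SE (y axis, H3.3 G34W K36R over H3.1 wild type) for each tested beta protocadherin, gamma protocadherin and Serpinb9 gene (x axis); red points were called higher, blue lower and grey not called. All 16 beta genes lie above 0 and all 7 Serpinb9 genes below it.

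Housekeeping lists show how far 1 library moves a result. The 41 cytosolic ribosomal protein genes had no limma call (0 at an unadjusted p under 0.05) and a median log2 fold change of -0.314, which became 0.038 without replicate 2 of H3.1 wild type and -0.700 without replicate 1, when 24 of them were called lower. Of 30 nuclear genes of oxidative phosphorylation 8 fell and none rose (median log2 fold change -0.353), against a median of -0.002 and 2 falls without replicate 2, and a median of -0.751 and 25 falls without replicate 1; with the pair as 1 sample limma called 0 of the 30 (7 at an unadjusted p under 0.05). Calls over all genes were 12.7% lower and 13.3% higher. Cycs, cytochrome c, was at 5662 and 9401 against 2997 and 3018 (log2 fold change -1.28 ± 0.22). The part of these differences between libraries in the other results was not tested. Without replicate 2 the median was 2.62 for the proteoglycans, 1.16 for the Wnt genes, 2.00 for the interferon-inducible GTPases and -1.01 for the S phase genes.

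**Figure D5:**
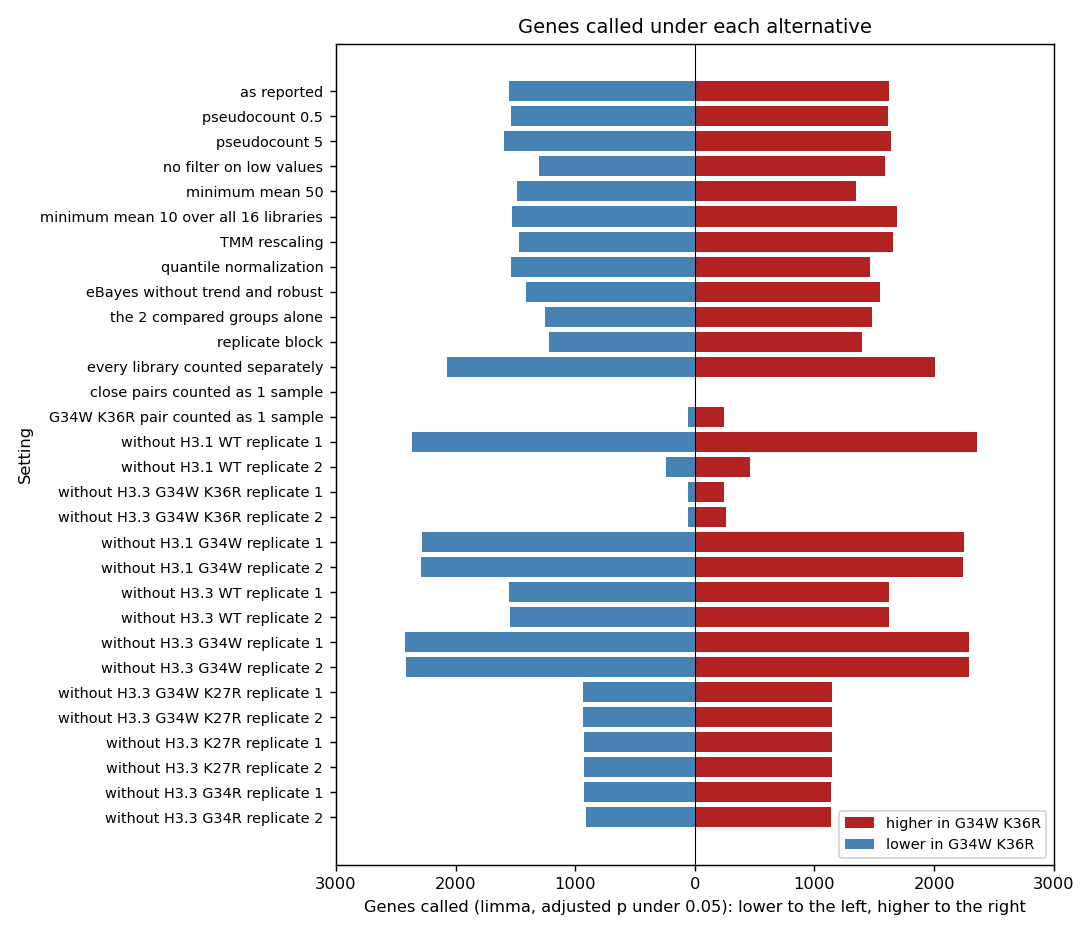
Number of genes called higher (red, to the right) and lower (blue, to the left) in G34W K36R by limma at an adjusted p under 0.05, as reported and under each of 29 alternatives (rows). The bars shrink to 242 and 54 with the G34W K36R pair as 1 sample and to 0 with all 5 close pairs as 1 sample.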

How the data were processed

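Polyadenylated RNA of 16 libraries (8 groups of 2) was sequenced. Per the submitters' processing notes the authors used RSEM 1.2.4 and mm9; aligner, annotation and strand are not given in the sources used here. The deposited signal is RSEM expected counts times 1 constant per library (a median normalization, per the file name). Between 41.7% and 47.6% of values above 0 lay within 0.01 of whole reads, so counts could not be recovered and count models were not used. A smaller deposited table was not used.

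log2(value + 1) was fitted with limma 3.58.1 (R 4.3.3, statmod 1.5.0; lmFit, eBayes with trend and robust) over all 8 groups, two-sided; p-values were adjusted over 12210 genes by Benjamini-Hochberg. The H3.3 wild-type libraries were within sampling noise of each other (chi-square of whole reads 0.956 a degree of freedom, p = 0.952) and were counted as 1 sample, leaving 15 samples and 7 residual degrees of freedom. Values are given per library, fold changes with their SE. Replicate numbers did not pair the samples (correlation of replicate differences 0.0286 for the compared groups, -0.290 to 0.0629 over 28 pairs of groups). The script was tested on simulated data.

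The members and the 53 gene lists were chosen with earlier results of these data known. Named are the 12 largest and 6 most abundant changes each way (called, mean of at least 50 in a group, no overlap, no provisional symbol), up to 4 called members a list and 20 fixed genes; others are marked as chosen after their values were seen, or stand as uncalled members of a list described or as paralogs. Levels are never compared between genes. Some list members are not reported here by name. RefSeq GRCm38.p6 gave promoters for 9710 of the 12107 genes matched. Alternatives were other pseudocounts, filters, scalings (TMM, quantile), variance settings, group choices, a replicate block, pair counts and leaving out each library.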

Additional observations from a re-analysis of the deposited data

How the results depend on the processing

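Of 188 named genes called, none reversed under the alternatives that tested them (159 were tested with a minimum mean of 50 and 187 with the filter over 16 libraries). Of the 188, 59 kept their call with the G34W K36R pair as 1 sample, 78 without replicate 2 of H3.1 wild type, 60 without either G34W K36R library and 0 with the close pairs as 1 sample. The count of 3174 calls moved most with how close pairs were counted and with single libraries. With all 5 close pairs counted as 1 sample limma called 0 genes (1193 at an unadjusted p under 0.05). With only the G34W K36R pair as 1 sample, chosen after the data were seen, it called 296 (242 higher, 54 lower), which raised the share of higher calls from 51.2% to 81.8%. Leaving out 1 library gave 300 to 4724 calls (242 to 2357 higher, 58 to 2422 lower): 697 (458 higher, 239 lower) without replicate 2 of H3.1 wild type, 4724 without its replicate 1, 300 and 316 without replicates 1 and 2 of G34W K36R, 2082 and 2083 without those of G34W K27R, 2074 and 2069 without those of K27R, and 2065 and 2048 without those of G34R, and falls alone also moved without H3.3 G34W replicate 1 (2422) or 2 (2418). Where 1 library remained, its spread was taken from the remaining groups. The replicate block gave 2612 calls (1396 higher, 1216 lower) and 175 of the 188 named genes; the numbers do not pair the samples. The other settings gave 2732 to 4080 calls, the latter with every library counted separately. Reversed were uncalled genes: H3f3a was 0.0632 with quantile normalization and -0.360 to 0.111 with 1 library left out, H3f3b -0.0122 to 0.288, Mki67 -0.634 to 0.844 and Setd2 -0.121 to 1.02 (the ends being replicates 1 and 2 of H3.1 wild type), and Rplp0 0.115 with quantile normalization. The cause of these changes was not tested. Depth sets a floor of 3 reads, 2.27 to 2.93 in the deposited unit, and no fold is given where both groups lie under it.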

Other observations

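Cell adhesion and guidance genes also differed, beside 13.3% of all genes called higher and 12.7% lower. Of 27 tested integrin and laminin chains 10 rose and 3 fell (1 and 1 with the G34W K36R pair as 1 sample, 5 and 1 without replicate 2 of H3.1 wild type). Itga11, a collagen receptor chain, was at 661 and 386 in H3.1 wild type and 3178 and 3166 in G34W K36R, and Lama1, a laminin chain, at 11.4 and 13.7 against 214 and 198. Of 32 tested axon guidance genes 9 rose and 2 fell, but 2 rose and none fell with the pair as 1 sample and likewise without replicate 2 of H3.1 wild type. Beside Slit3, Sema6d was at 5.31 and 3.91 against 48.9 and 55.8, and Sema7a, a membrane-bound semaphorin, fell from 831 and 1105 to 90.003 and 79.3; both calls were lost with the pair as 1 sample (limma adjusted p = 0.086 and 0.105). Of 47 tested developmental transcription factors 18 rose and 1 fell, 2 of the rises with the pair as 1 sample and 4 without replicate 2 of H3.1 wild type: Snai1, a regulator of epithelial to mesenchymal transition, was at 743 and 797 against 3191 and 3153 (log2 fold change 2.04 ± 0.21), and Foxf1a at 60.6 and 44.0 against 168 and 171 (log2 fold change 1.70 ± 0.25).

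Differentiation genes of the mesenchymal lineages were mixed. Beside the counts of this paragraph, 13.3% of all genes were called higher and 12.7% lower. Of 13 tested chondrocyte genes 4 rose and none fell (3 with the pair as 1 sample); Matn4, a cartilage matrix protein, was at 21.2 and 13.7 against 225 and 197. Of 19 contractile genes 5 rose and 2 fell (1 rose with the pair as 1 sample, 2 without replicate 2); Cnn1, the smooth muscle calponin, was at 1.52 and 2.93 against 78.3 and 71.4 (ratio 33.7, 95% counting interval 14.1 to 105). Of 10 tested osteoblast genes 2 rose and 1 fell, near the share of all genes (13.3% and 12.7%). Limma called none with the pair as 1 sample (3 at an unadjusted p under 0.05) or without replicate 2 (4). Postn, a matricellular protein, was at 13055 and 7249 against 45859 and 45980.0, and Spp1, osteopontin, fell from 11594 and 12113 to 4817 and 4829.9. Adipoq, the adipocyte hormone, was below the threshold for testing at 0.758 and 0 against 2.93 and 1.76. Thy1, a mesenchymal surface marker, was at 321 and 522 against 588 and 626 and was not called (limma adjusted p = 0.387). In BMP and TGF-beta signalling 7 of 25 tested genes rose and 2 fell (2 and 0 with the pair as 1 sample, 5 and 0 without replicate 2); the inhibitory Smad6 was at 717 and 840.4 against 1932 and 1973, and Inhbb at 1664 and 2312 against 406 and 394, whose call was lost with the pair as 1 sample (limma adjusted p = 0.142). Slc30a1, a zinc exporter, fell from 2554 and 1808 to 348 and 324.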
